A study of Mus musculus with 46 samples.

Results

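Hippocampal and whole-brain microglia were compared 6 h after lipopolysaccharide (LPS), the outer-membrane component of Gram-negative bacteria. The comparison used 12 of the 46 libraries of the series, namely 4 hippocampal and 8 whole-brain libraries, chosen by their labelled tissue and treatment and not by any measured value. All were bulk polyadenylated RNA from freshly sorted microglia of mice aged 10 to 12 weeks, given 1 mg/kg LPS intraperitoneally. The sort kept CD45intCD11b+F4/80+Ly6C-Ly6G- cells, a gate that would remove Ly6G+ neutrophils and Ly6C+ monocytes. The hippocampal libraries were 2 from Dicer-deficient mice (18 and 20) and 2 from control mice (15 and 16). The whole-brain libraries were 4 from Dicer-deficient mice (35 to 38) and 4 from control mice (17, 31, 32 and 33). The design text of the series counts 3 Dicer-deficient whole-brain libraries after LPS, where 4 samples carry that label, and it writes the untreated adult controls and Dicer-deficient mice with 1 genotype string. The sample labels were followed, without a check on which count is right. Dicer-deficient animals were Cx3cr1CreER:Dicerfl/- and control animals Cx3cr1CreER:Dicer+/-. Every animal therefore carried the tamoxifen-inducible Cre driven by Cx3cr1, a gene of microglia and other myeloid cells, and 1 Dicer allele marked "-". The 11 steady-state libraries of the same tissues (5 hippocampal, 6 whole-brain) served as a second, independent set of samples. The labels of the whole-brain steady-state libraries also say PBS.

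The 2 regions came in 2 deposited tables that the authors scaled separately, with 1 region per table. Region and table therefore cannot be told apart in any hippocampus-minus-whole-brain value given here, although the 12 columns were rescaled together. Neither of these tables holds a library of the other region. Whole-brain suspensions may also contain hippocampal microglia, so the contrast is between a region and the organ that holds it. Nothing in the labels says that each library is a separate animal, so p-values measure the spread between libraries, which may be technical.

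Microglia are the resident macrophages of the brain. They detect LPS through Toll-like receptor 4, which activates NF-kB and MAP kinase signalling. Within minutes to hours this induces immediate early genes such as Egr1, followed by cytokines such as Tnf and a slower wave of interferon-stimulated genes, while genes of the resting, homeostatic state are reduced. Microglia differ somewhat between brain regions, and the hippocampus serves memory and holds a zone of adult neurogenesis. Dicer1 encodes the endonuclease that matures microRNAs.

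The hippocampal libraries held 1817611 to 3889562 reads and the whole-brain libraries 2358485 to 4573063. Genes above 0 numbered 10575 to 11880 in the hippocampal libraries, fewer than in any whole-brain library (12179 to 12936), and the library with the fewest reads and genes was hippocampal Dicer-deficient 18. All levels are normalised read counts on the joint scale of the 12 libraries, and all differences are hippocampus minus whole brain on the log2(level + 1) scale with genotype as a covariate. A gene was called when its limma p, adjusted by the Benjamini-Hochberg method over all tested genes, was under 0.05.

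Markers of microglia were abundant in both regions. Csf1r, the receptor for the growth factor that microglia need to survive, stood at 19284 and 20233 in the hippocampal Dicer-deficient libraries and at 19021 and 23112 in the hippocampal controls, against 13982 to 23502 in whole brain. All 30 homeostatic markers were above 0 in both regions. Lyve1, a hyaluronan receptor of border macrophages, was at 0 in all 12 libraries, and the T-cell gene Cd3e was at 0 as well. Dicer1 levels overlapped between the genotypes, with 79.5 and 93.8 in hippocampal Dicer-deficient libraries and 57.8 and 107 in hippocampal controls, and 155, 80.8, 76.4 and 138 in whole-brain Dicer-deficient libraries and 116, 111, 80.3 and 106 in whole-brain controls. Where in the gene those reads lie is not given in the sources used here, and reads outside the deleted part check nothing. Its regional difference was -0.34 ± 0.24 (SE), adjusted p = 0.627.

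A single library stood apart from its group in several LPS-responsive genes. Whole-brain control 33, labelled as taken after LPS, had Saa3, an acute-phase gene, at 79.5, against 2575 to 2821 in the other 3 whole-brain controls. Tnf stood at 73.8 there and at 422 to 565 in the other 3. The homeostatic purine receptor P2ry12 was at 5872 in the library labelled control 33 and at 941 to 1428 in the others. Not all LPS-responsive genes stood apart this way. Lcn2 had 646 reads there, 215 to 457 in the other 3, and 0, 5 and 7 in the whole-brain steady-state controls. Slc2a5 had 70 reads there, 15 to 134 in the other 3, and 666 to 1591 in those steady-state controls. Saa3 had 83 reads there and 25 to 41 in those steady-state controls. Control 33 was kept in the fit as labelled, and values without it stand beside the count of calls and beside results on inflammatory and homeostatic genes that it moved. Whole-brain Dicer-deficient 38 also stood apart in sex-linked genes, with Xist at 364 and the Y-linked Ddx3y at 4.91, where the other 11 libraries had Xist at 10.2 or less and Ddx3y at 202 or more.

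Few genes differed between the regions. Of 12363 genes tested, 4 were called (0.0324%), 1 higher in hippocampus (0.00809%) and 3 lower (0.0243%). Egr1 was the higher one, and S100b, Sh3bp1 and 1110007C09Rik were lower. With so small a share called, a gene list without a call is not set apart from other genes by that. At an unadjusted p under 0.05 there were 1328 genes (10.7%). The estimates were close to 0 for most of the table: 73.2% of genes had a point estimate under 0.5 in size, 1109 genes (8.97%) had one of 2-fold or more in either direction, and 6435 genes (52.1%) had a 95% confidence interval that lay within 2-fold in either direction. For the remaining genes the 12 libraries did not bound the difference that tightly. The median standard error over all genes was 0.31.

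The 4 calls depended on which libraries entered. Without hippocampal Dicer-deficient 18, 0 genes were called, and 1 was called without whole-brain Dicer-deficient 35, 37 or 38 or without whole-brain control 31 or 32. There were 2 calls without whole-brain Dicer-deficient 36, 8 without hippocampal Dicer-deficient 20, 9 without whole-brain control 33, 11 without whole-brain control 17 and 12 without hippocampal control 16. The 9 calls without the library labelled control 33, of 12225 genes (0.0736%), were 6 higher (0.0491%) and 3 lower (0.0245%). Ctrb1, Tnf, Ier3, Ier2 and Hexim1 were added to the 4. On recovered reads the balance was the other way, with 7 higher and 2 lower of 9 calls in edgeR with TMM scaling and 6 higher and 2 lower of 8 with RLE scaling, whereas DESeq2 called 36 higher and 47 lower. Egr1, Sh3bp1 and 1110007C09Rik were called by both tools, and S100b by DESeq2 (adjusted p = 0.0015) but not edgeR with TMM scaling (adjusted p = 0.0684). DESeq2 also called Ccl3, Hexim1, Ier2, Atf3, Jund and Nfkb1, each in the direction of the limma estimate given below, and edgeR with TMM scaling called Hexim1 of these 6.

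The sign of the estimates moved with the level of the genes. Among the 2694 genes with a mean level under 10, the hippocampal estimate was the higher one for 28.8%, with a median difference of -0.40. For 4601 genes at a mean level of 100 or more it was higher for 48.8%, with a median of -0.01. The lower number of genes detected in hippocampal libraries moves with this, and its part in the low-level genes was not tested. Over all genes 42.7% of estimates were positive and the median was -0.07. In 49 genes (0.396%) all 4 hippocampal libraries lay above all 8 whole-brain libraries, and in 75 (0.607%) all 4 lay below.

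**Figure D1:**
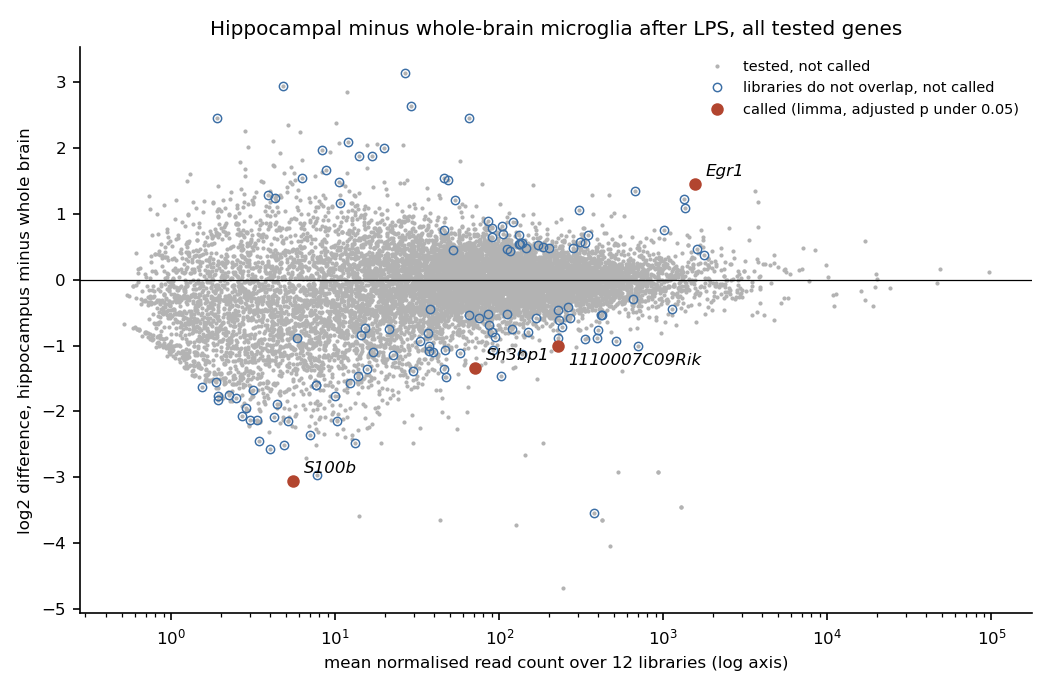
Log2 difference (hippocampus minus whole brain, genotype as covariate) of each of the 12363 tested genes after LPS against its mean level over the 12 libraries (log axis). Called genes are labelled and open circles mark genes whose hippocampal and whole-brain libraries do not overlap. Most points lie near 0, with a wider spread at low levels, and Egr1 stands apart at a high level.

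Egr1, a zinc-finger transcription factor induced within minutes of growth factor or Toll-like receptor signalling, was the most firmly called gene. It had 2539.9 and 2226 in the hippocampal Dicer-deficient libraries and 2758 and 3103 in the hippocampal controls. In whole brain it had 1022, 623, 1051 and 559 in the Dicer-deficient libraries and 1273, 1303, 1177 and 1030.2 in the controls. Every hippocampal library was above every whole-brain library, and the lowest hippocampal level, 2226, stood against a highest whole-brain level of 1303. The difference was 1.45 ± 0.19 (SE), adjusted p = 0.00978 in limma, with a 95% interval of 1.05 to 1.85. It was called in 11 of 12 refits that left out a library, the exception being the one without hippocampal Dicer-deficient 18 (log2 difference 1.38, adjusted p = 0.0567). Without whole-brain control 33 it was 1.43, with an adjusted p of 0.00553 in limma. Within the control libraries alone the difference was 1.30, and within the Dicer-deficient libraries alone it was 1.61.

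Its family member Egr2, a related zinc-finger factor, was lowly expressed and not called. Egr2 had 17.8 and 19.6 in hippocampal Dicer-deficient and 32 and 25.2 in hippocampal control libraries, against a lowest, median and highest whole-brain level of 0.903, 6.18 and 11.9. The regions did not overlap, and the difference was 2.10 ± 0.58 (SE), adjusted p = 0.209. Ier2, an immediate early gene chosen here after its values were seen, showed the same separation. It had 2012 and 2549.7 in hippocampal Dicer-deficient and 1591 and 1993 in hippocampal control libraries, against 298 to 1346 in whole brain (median 1059). Its difference was 1.09 ± 0.28 (SE), adjusted p = 0.173, and without whole-brain control 33, which had the lowest level, it was 0.88 with an adjusted p of 0.0362 in limma. Ier3, an LPS-inducible regulator of cell survival also chosen after its values were seen, ranged from 3365 to 7700.4 in hippocampus and from 198 to 4448 in whole brain, so its groups overlapped. Its difference of 1.36 ± 0.48 (SE), adjusted p = 0.321, became 0.95 with an adjusted p of 0.0283 without that control.

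Not all immediate early genes had a higher estimate. Of the 31 in the list of immediate early and dissociation-induced genes 30 were tested, 18 with a higher and 12 with a lower estimate, and Egr1 was the only one called. The list's median was 0.25, against -0.07 over all genes, and 0.12 without whole-brain control 33. Atf3, a stress-induced bZIP factor, had a lower estimate, with 96 and 69.5 in hippocampal Dicer-deficient and 33.6 and 44.3 in hippocampal control libraries against 82.8 to 240.5 in whole brain. The Atf3 difference was -1.34 ± 0.27 (SE), adjusted p = 0.0722. Jund, an AP-1 subunit, ranged from 227 to 298 in hippocampus and from 349 to 724 in whole brain without overlap, with a difference of -0.76 ± 0.18 (SE), adjusted p = 0.132.

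The Hsp70 genes Hspa1a and Hspa1b, chaperones induced by heat and handling stress, had the lowest estimates of that list. They are near-identical copies whose reads may have been split between them, so each is uncertain. Hspa1b had 46.6 and 9.45 in hippocampal Dicer-deficient and 10.9 and 13.5 in hippocampal control libraries. Whole-brain levels were 254, 436, 47.8 and 196 in Dicer-deficient libraries and 3269, 78.5, 88.8 and 102 in controls, the first of these in control 17. All hippocampal libraries lay below all whole-brain libraries, but the whole-brain spread was wide and the difference was -3.55 ± 0.83 (SE), adjusted p = 0.132. Leaving out control 17 gave -2.91 with an adjusted p of 0.0401 in limma. Hspa1a overlapped, at 17.2 to 203 in hippocampus against 85.2 to 4166 in whole brain. These genes were chosen after their values were seen, and both were called at steady state, at -3.88 (adjusted p = 0.00345, limma) for Hspa1a and -3.64 (adjusted p = 0.0141, limma) for Hspa1b, in all 11 refits without a library.

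**Figure D2:**
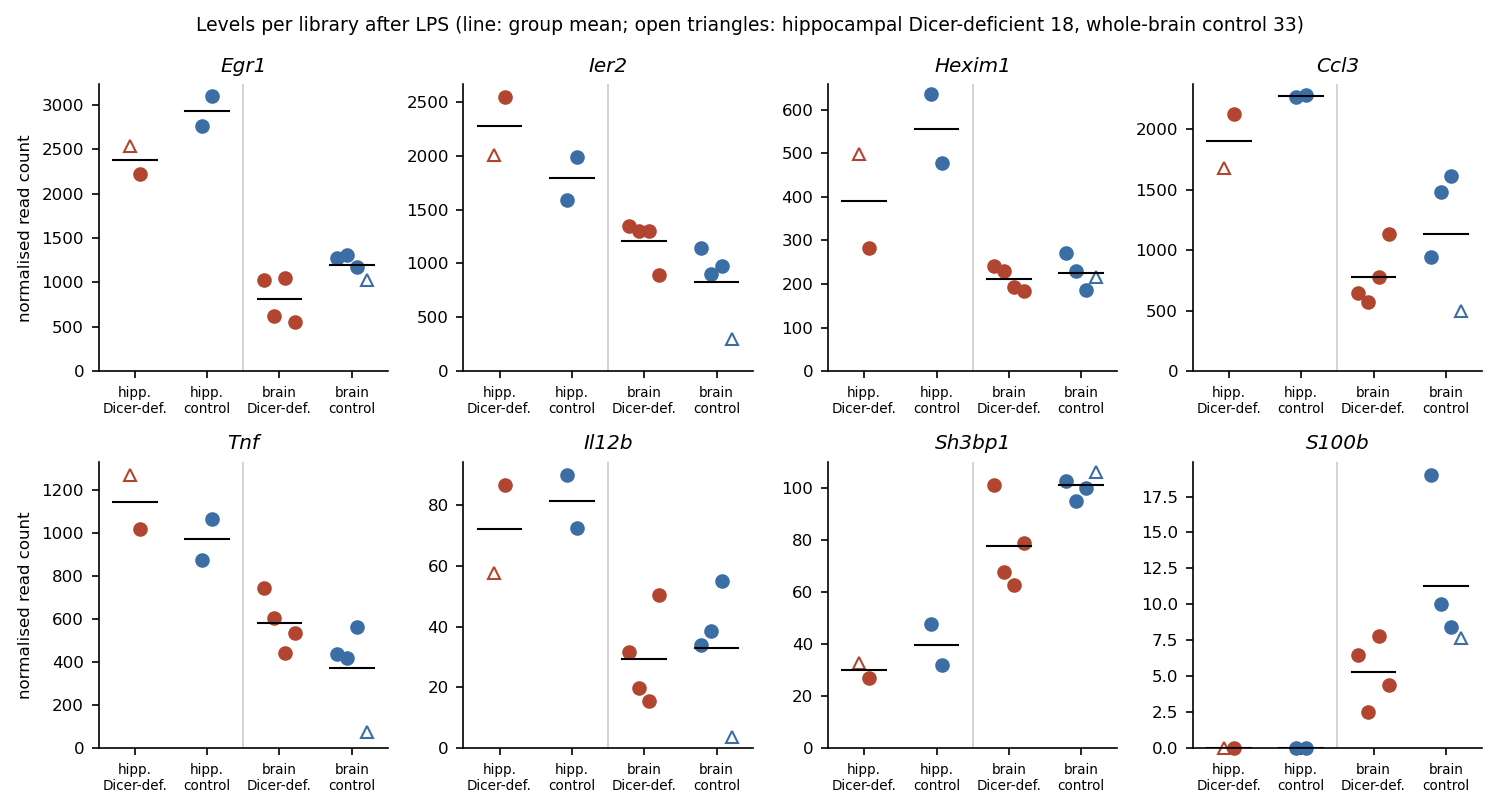
Normalised read count per library for 8 genes after LPS, in hippocampal Dicer-deficient (n = 2), hippocampal control (n = 2), whole-brain Dicer-deficient (n = 4) and whole-brain control (n = 4) libraries, with lines at group means. Open triangles mark hippocampal Dicer-deficient 18 and whole-brain control 33. The hippocampal points of Egr1, Ier2, Hexim1, Ccl3, Tnf and Il12b lie above all whole-brain points, and those of Sh3bp1 and S100b below them.

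Cytokines and chemokines mostly had higher estimates in hippocampus, without a call, where 0.0324% of all genes were called. Of 30 genes in the list 26 were tested, 21 with a higher estimate and 5 with a lower one. Their median was 0.46, against -0.07 over all genes, and it was 0.23 without whole-brain control 33, when 1 of 26 was called. For 3 of the 26 all hippocampal libraries lay above all whole-brain ones, and for 0 all lay below. Over all genes these shares were 0.396% and 0.607%. Il10 was at 0 in all 12 libraries. At steady state 22 members were tested and their median was 0.85. Of these 2 were called higher, where 1.19% of all genes were. The list's median response, LPS minus steady state, was 2.41 in hippocampus and 2.77 in whole brain. Its median difference of responses was -0.30, with 0 called.

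Ccl3, a chemokine that attracts monocytes and neutrophils, had 1677 and 2122 in hippocampal Dicer-deficient and 2265 and 2279.8 in hippocampal control libraries. Ccl3 in whole brain had 647, 569.7, 778 and 1131 in Dicer-deficient libraries and 944, 1484, 1616 and 498 in controls. The lowest hippocampal level was just above the highest whole-brain level, which was in control 32, and the difference was 1.23 ± 0.27 (SE), adjusted p = 0.104.

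Tnf, the early cytokine that drives much of the sickness response, had 1273 and 1021 in hippocampal Dicer-deficient and 877 and 1066 in hippocampal control libraries. In whole brain it had 744, 608, 442 and 535 in Dicer-deficient libraries and 440.4, 422, 565 and 73.8 in controls. The regions did not overlap, and the last of these values, from control 33, stood far below the rest. With it the difference was 1.35 ± 0.39 (SE), adjusted p = 0.236. Without it the estimate was 1.02 ± 0.16 (SE), smaller yet called, with an adjusted p of 0.0262 in limma.

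Il12b encodes the p40 subunit shared by interleukin-12 and interleukin-23. It had 57.6 and 86.4 in hippocampal Dicer-deficient and 89.8 and 72.5 in hippocampal control libraries, against 3.87, 32.8 and 54.9 as the lowest, median and highest of whole brain. The groups narrowly missed each other and the difference was 1.55 ± 0.52 (SE), adjusted p = 0.298, or 1.17 without whole-brain control 33. Il1b, the inflammasome-processed cytokine, followed genotype more than region, and was named after its values were seen. It had 1919 and 1502 in hippocampal Dicer-deficient and 365 and 454 in hippocampal control libraries, and 1193, 1157, 1090.2 and 1809 in whole-brain Dicer-deficient and 232, 256, 431 and 46.9 in whole-brain control libraries. The regional difference was 0.76 ± 0.40 (SE), adjusted p = 0.509, and it was 0.43 (adjusted p = 0.381) with control 33 left out.

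The promoters of Ccl3, Tnf, Il12b and Egr2 are shown because all 4 hippocampal libraries of these inducible genes lay above all 8 whole-brain libraries. They are RefSeq windows of build GRCm38.p6, from 250 bases before to 50 after the annotated start, given 5′ to 3′ on the gene's strand. Egr1 and Ier2 are named only. Both strands were searched for the kB site, the CArG box bound by serum response factor, the AP-1 site TGANTCA and the cAMP response element TGACGTCA. Capitals mark a CArG box.
Ccl3 promoter, chr11:83649329-83649628 on the minus strand: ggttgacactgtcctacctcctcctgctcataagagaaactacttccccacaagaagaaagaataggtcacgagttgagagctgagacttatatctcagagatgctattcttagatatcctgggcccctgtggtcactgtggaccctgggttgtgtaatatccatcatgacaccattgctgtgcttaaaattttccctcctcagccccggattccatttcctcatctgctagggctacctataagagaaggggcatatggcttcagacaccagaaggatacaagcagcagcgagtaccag
Tnf promoter, chr17:35201958-35202257 on the minus strand: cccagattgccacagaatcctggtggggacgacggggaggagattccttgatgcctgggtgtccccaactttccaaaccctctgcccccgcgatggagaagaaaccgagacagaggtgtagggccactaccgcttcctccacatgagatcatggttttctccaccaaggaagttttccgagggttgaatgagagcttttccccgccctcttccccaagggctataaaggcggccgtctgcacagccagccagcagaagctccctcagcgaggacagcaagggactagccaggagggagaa
Il12b promoter, chr11:44399813-44400112 on the plus strand: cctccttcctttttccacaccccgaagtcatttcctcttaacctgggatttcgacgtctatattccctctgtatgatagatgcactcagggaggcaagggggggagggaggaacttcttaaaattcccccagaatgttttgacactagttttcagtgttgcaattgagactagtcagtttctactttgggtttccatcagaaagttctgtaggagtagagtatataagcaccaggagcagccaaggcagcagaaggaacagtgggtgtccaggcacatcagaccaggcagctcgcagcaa
Egr2 promoter, chr10:67537619-67537918 on the plus strand: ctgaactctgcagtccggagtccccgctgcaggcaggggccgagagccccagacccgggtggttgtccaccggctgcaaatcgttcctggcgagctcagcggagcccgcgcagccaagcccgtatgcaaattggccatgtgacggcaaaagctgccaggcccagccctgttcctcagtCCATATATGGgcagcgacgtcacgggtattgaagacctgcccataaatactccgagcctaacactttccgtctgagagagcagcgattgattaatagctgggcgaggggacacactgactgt

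None of the 4 motifs was found in the Ccl3, Tnf and Il12b windows, which says only that these letters are not in these 300 bases. Egr2 has 5 annotated start windows, of which 4 hold a CArG box and 1 holds a kB site. The windows starting at 67537619, 67537620 and 67537680 overlap and share the box marked above. The 4 windows thus hold 2 distinct boxes, and the count is not one of separate matches. Among 32851 windows of this length in the same table, 1.63% hold a CArG box, 8.46% a kB site, 7.81% an AP-1 site and 1.79% a cAMP response element. These motifs can overlap each other in a window, and a match is a description of the letters.

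Regulators of NF-kB and Toll-like receptor signalling gave no call, where 0.0324% of all genes were called. Of the 31 tested members 0 were called, 23 had a higher estimate, and for 20 the 95% interval lay within 2-fold. The list's median was 0.24, and 0.16 without whole-brain control 33. Nfkb1, the p105/p50 subunit, had 239 and 285 in hippocampal Dicer-deficient and 175 and 175 in hippocampal control libraries, against 362 to 373 and 236 to 284 in whole-brain Dicer-deficient and control libraries. Within each genotype the hippocampal Nfkb1 levels were the lower ones, with a difference of -0.53 ± 0.13 (SE), adjusted p = 0.17. At steady state Nfkb1 was called lower in hippocampus, at -0.61 (adjusted p = 0.0371, limma). Tnfaip3, which encodes the ubiquitin-editing inhibitor A20, had 905 and 621 in hippocampal Dicer-deficient and 261 and 274 in hippocampal control libraries, and its difference was 0.62 ± 0.23 (SE), adjusted p = 0.367, or 0.46 without control 33.

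Interferon-stimulated genes gave no call, where 0.0324% of all genes were called, and had opposite medians in the genotypes. Of the 45 tested members 0 were called, 26 had a higher estimate and the median was 0.13. That median rested on single libraries: it was 0.48 without hippocampal Dicer-deficient 18, -0.10 without hippocampal control 16 and 0.03 without whole-brain control 33. Within control libraries alone the median regional difference was 0.77, and within Dicer-deficient libraries alone it was -0.55, with 2 hippocampal libraries in each. Trim30a, a regulator of Toll-like receptor signalling, had 902 and 398 in hippocampal Dicer-deficient and 636 and 451 in hippocampal control libraries, against 172 to 554 in whole brain. Irf9, the DNA-binding subunit of the interferon-activated complex ISGF3, ranged from 288 to 687 in hippocampus and from 397 to 1019.6 in whole brain, with a difference of -0.49 ± 0.26 (SE), adjusted p = 0.514. Mx2, an antiviral GTPase, was at 1.37 in Dicer-deficient 18 but between 66.8 and 114 in the other 3 hippocampal libraries, inside the whole-brain range of 51 to 147.

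Acute-phase genes varied widely within each region. Of 17 tested members 10 had a higher estimate, 0 were called, and the median was 0.19, or -0.18 without whole-brain control 33. Over the refits without a library it ran from -0.21 to 0.40, and 3 of the 12 turned its sign. Saa3, a serum amyloid gene strongly induced by LPS, ranged from 3622 to 9223 in hippocampus and from 79.5 to 4551 in whole brain. Lrg1, a secreted leucine-rich glycoprotein, had 1805 and 1403 in hippocampal Dicer-deficient and 275 and 184 in hippocampal control libraries. Whole-brain Lrg1 had 1693, 1501, 1042 and 976 in Dicer-deficient and 244, 197, 153 and 82.4 in control libraries, so that the genotypes were far apart in both regions and the regions overlapped, at 0.42 ± 0.25 (SE), adjusted p = 0.549, or 0.27 without control 33. Glucocorticoid-responsive genes had 14 of 17 tested members with a higher estimate, 0 called and a median of 0.26, which became -0.09 without whole-brain control 33. Sgk1, a kinase induced by glucocorticoids, ranged from 1816 to 2780.1 in hippocampus against 1280.3 to 2347 in whole brain.

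Hexim1, which holds the elongation factor P-TEFb inactive on the 7SK RNA, was chosen after its values were seen. It had 498 and 283 in hippocampal Dicer-deficient and 636 and 478 in hippocampal control libraries, against 185, 222 and 272 as the lowest, median and highest of whole brain. The regions did not overlap, the difference was 1.06 ± 0.19 (SE), adjusted p = 0.062, and without whole-brain control 33 the adjusted p was 0.0467 in limma. At steady state, in other libraries of the same 2 tables, Hexim1 was called higher in hippocampus (1.00 ± 0.19, adjusted p = 0.0122, limma), in all 11 refits without a library. Ddx5, an RNA helicase of the small-RNA and splicing machinery, likewise lay higher in all hippocampal libraries, at 1733 to 2187 against 1021 to 1628 in whole brain. Its difference of 0.46 ± 0.16 (SE), adjusted p = 0.321, was small and not called. Ddx5 was called higher in hippocampus at steady state, at 0.53 (adjusted p = 0.0259, limma).

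Sh3bp1, a GTPase-activating protein that acts on the actin cytoskeleton, was called lower in hippocampus. It had 32.9 and 27 in hippocampal Dicer-deficient and 47.7 and 32 in hippocampal control libraries. The whole-brain libraries had 101, 67.9, 62.7 and 78.9 in Dicer-deficient and 103, 95.2, 100.1 and 106 in control libraries, without overlap. The difference was -1.34 ± 0.21 (SE), adjusted p = 0.0397 in limma, and it was called in 3 of the 12 refits that left out a library, those without whole-brain control 17 or 33 or hippocampal control 15, with adjusted p up to 0.1 in the others. Sh3bp1 was also called lower in hippocampus at steady state, at -1.94 ± 0.33 (SE, adjusted p = 0.00604, limma), in all 11 refits. There it had 22.7, 18.8 and 16.1 in hippocampal Dicer-deficient and 21.1 and 24.3 in hippocampal control libraries, against 55.2 to 99.6 in whole brain. It was the only gene called in both states.

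S100b, a calcium-binding protein used as an astrocyte marker, was at 0 in all 4 hippocampal libraries. In whole brain it had 6.52, 2.54, 7.77 and 4.41 in Dicer-deficient and 19, 10, 8.44 and 7.64 in control libraries, 82 reads in all. Taking 3 reads over the hippocampal group as the floor, the hippocampal level was at least 13.4-fold lower. A gene was tested with a level of 1 or more in at least 4 libraries. S100b could therefore enter only through whole brain, where it was high, and the part of the filter in its call was not tested. The fitted difference, which depends on the pseudocount, was -3.05 ± 0.46 (SE), adjusted p = 0.0333 in limma, and it was called in 5 of 12 refits without a library (whole-brain Dicer-deficient 36, whole-brain control 17 or 33, hippocampal Dicer-deficient 20 or hippocampal control 16), with adjusted p up to 0.0974 in the others. Of 12 astrocyte markers 7 were tested, and S100b was the only one called. Aldoc, a glycolytic enzyme of astrocytes, ranged from 0 to 8.78 in hippocampus and from 0.813 to 12 in whole brain. The summed level of the 12 markers was 605 to 1573 in hippocampus and 697 to 2097 in whole brain, with Aqp4, Slc1a2, S100b and Ntsr2 at 0 in hippocampus and Aqp4 at 0 in whole brain.

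The fourth call, 1110007C09Rik, is an unnamed gene model. It had 162 and 226 in hippocampal Dicer-deficient and 75.8 and 92.8 in hippocampal control libraries, and 332, 384, 345 and 355 in whole-brain Dicer-deficient and 155, 194, 169 and 229 in whole-brain control libraries. The regions overlapped overall but not within a genotype, and the difference was -1.01 ± 0.16 (SE), adjusted p = 0.0397 in limma. It was called in 4 of 12 refits, those without whole-brain control 17 or 33, hippocampal Dicer-deficient 20 or hippocampal control 16, with adjusted p up to 0.151 in the others.

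The homeostatic programme gave no call, where 0.0324% of all genes were called, and was more tightly bounded than most genes. Of its 30 tested members 0 were called, 8 had a higher estimate, and for 23 (76.7%) the 95% interval lay within 2-fold, against 52.1% of all genes. The median level of all tested genes was 59.45, and these shares were not matched for level. Its median was -0.21, and -0.05 without the library labelled control 33, which carried the highest P2ry12, Tmem119 and Sall1. P2ry13, a purine receptor of resting microglia, had 2565 and 2102 in hippocampal Dicer-deficient and 1849 and 2003 in hippocampal control libraries, against 1045, 1389 and 2792 as the lowest, median and highest of whole brain. Its difference was 0.50 ± 0.23 (SE), adjusted p = 0.451, and 0.66 (adjusted p = 0.111) without control 33. Sall1, the transcription factor that specifies microglia, ranged from 168 to 292 in hippocampus and from 158 to 263 in whole brain apart from control 33. Slc2a5, the fructose transporter of microglia, was low in hippocampal controls, at 25.8 and 4.92, and higher in hippocampal Dicer-deficient libraries, at 118 and 109, inside the whole-brain range of 10.5 to 261.

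Lysosomal and respiratory genes were the most tightly bounded of the lists, again without matching for level. For 34 of 37 lysosomal genes (91.9%) and 35 of 40 respiratory chain genes (87.5%) the 95% interval lay within 2-fold, with 0 called and medians of -0.13 and -0.05. Lgmn, an asparaginyl protease of lysosomes, had 2883 and 3484 in hippocampal Dicer-deficient and 3622 and 3708 in hippocampal control libraries, against 3583 to 8229 in whole brain, at -0.60 ± 0.20 (SE), adjusted p = 0.298. Cox5b, a subunit of cytochrome c oxidase, ranged from 37 to 77.6 in hippocampus and from 76.6 to 147 in whole brain. Of 48 ribosomal protein genes 0 were called and the median was -0.01. The ribosomal gene Rps19, whose processed pseudogenes can share its reads, ranged from 71.3 to 198 in hippocampus and from 177 to 319.9 in whole brain. Glycolytic genes had a median of 0.03 and 0 calls in 19, complement genes a median of -0.06 and 0 calls in 13, and mitosis and replication genes a median of -0.20 and 0 calls in 28. Medians this small moved with single libraries: in refits without a library the sign turned in 1 of 12 for respiratory, 5 for ribosomal, 4 for glycolytic and 3 for complement genes. The lysosomal median was -0.05 without whole-brain control 33, and that of mitosis and replication -0.05 without hippocampal Dicer-deficient 18.

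Genes of antigen presentation gave no call after LPS, where 0.0324% of all genes were called. Of 11 MHC class II genes tested 3 had a higher estimate, 0 were called and the median was -0.22, and of 16 class I genes 5 had a higher estimate, 0 were called and the median was -0.15. The class I median was 0.09 without hippocampal Dicer-deficient 18, and it was below 0 in the other 11 refits, with -0.30 as the lowest. H2-Eb1, a class II beta chain, had 21.9 and 59.4 in hippocampal Dicer-deficient and 13.3 and 18.4 in hippocampal control libraries, against 28 to 106 in whole brain, at -1.01 ± 0.41 (SE), adjusted p = 0.394. H2-K1, a classical class I heavy chain, ranged from 1579.9 to 4412 in hippocampus and from 2125 to 5992 in whole brain. Genes of the disease-associated state had a median of -0.19, or -0.12 without control 33, and 0 calls in 20. C3ar1, the receptor for complement fragment C3a, had 2379 and 2004 in hippocampal Dicer-deficient and 1677 and 1029 in hippocampal control libraries against 729 to 1799 in whole brain, at 0.52 ± 0.21 (SE), adjusted p = 0.374. C3ar1 was called higher in hippocampus at steady state, at 0.65 (adjusted p = 0.0265, limma).

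**Figure D3:**
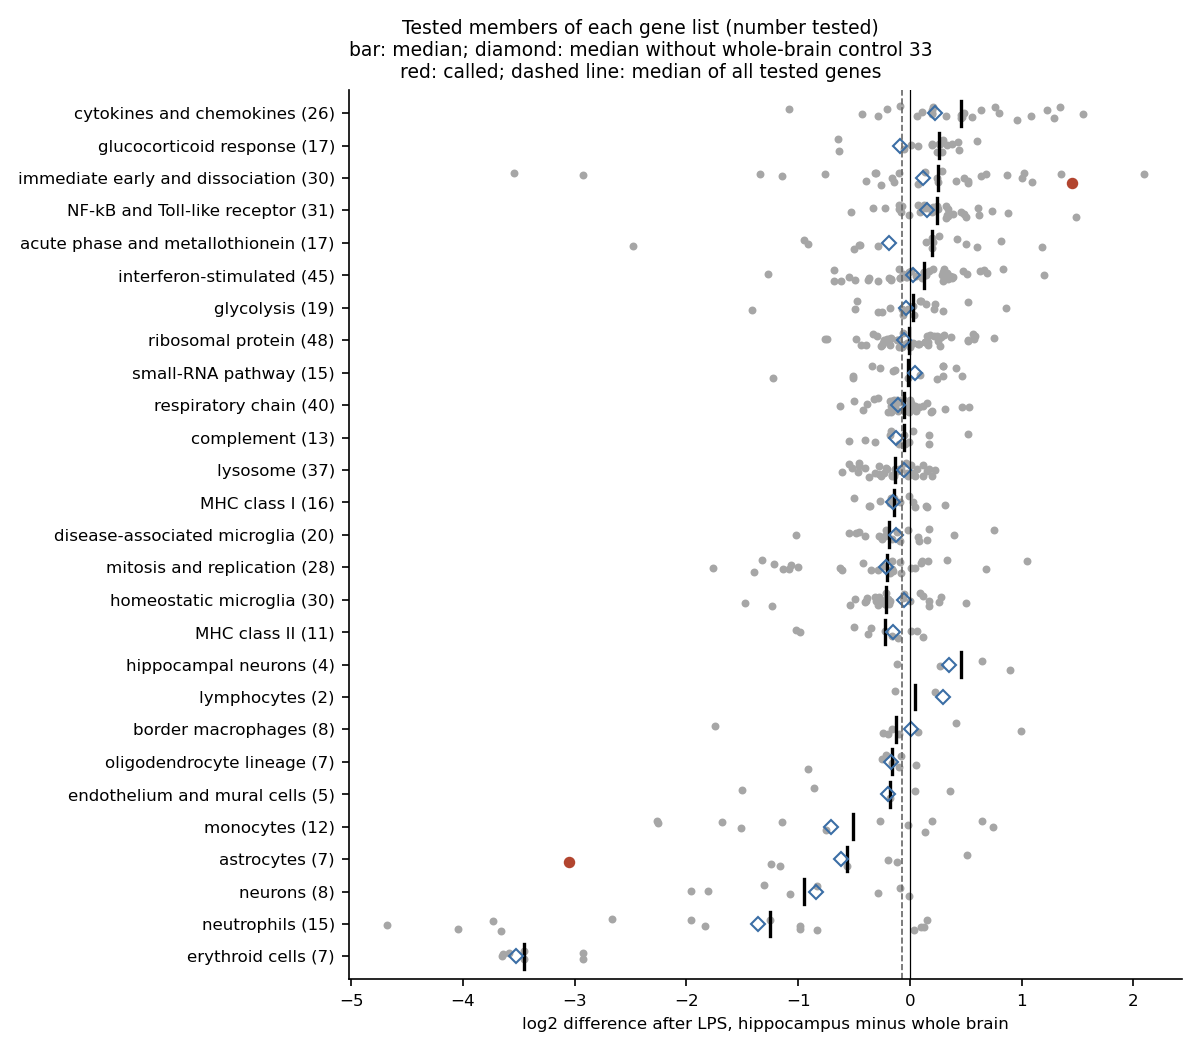
Log2 difference (hippocampus minus whole brain after LPS) of each tested member of each gene list, with a bar at the list's median over the 12 libraries and a diamond at its median without whole-brain control 33. Red marks called genes and the dashed line the median of all genes (-0.07). The medians of the microglial programmes lie near 0, and the cytokine list is the highest of them, at 0.46.

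Transcripts of red blood cells had lower estimates in the hippocampal libraries, with calls that depended on 1 library and on the tool. All 7 tested erythroid genes had a lower estimate, with a median of -3.46, -3.52 without whole-brain control 33 and -2.61 without hippocampal Dicer-deficient 18. None was called in the 12 libraries by limma, but leaving out whole-brain control 17 called Alas2 (-3.90, adjusted p = 0.0295), Hbb-b1 (-4.00, adjusted p = 0.0295), Hbb-b2 and Hbb-bt (adjusted p = 0.0401 each). DESeq2 called Alas2 (adjusted p = 0.0015) and Hbb-b1 (adjusted p = 0.035) in the 12 libraries, and edgeR with TMM scaling called neither. Alas2, the first enzyme of haem synthesis in red cells, had 0 and 0 in hippocampal Dicer-deficient and 3.12 and 0 in hippocampal control libraries, against 3 to 43.5 in whole brain, at -3.58 ± 0.64 (SE), adjusted p = 0.0637. The beta-globin Hbb-bt ranged from 4.11 to 169 in hippocampus and from 47.9 to 1504 in whole brain, and its values are nearly those of Hbb-b2, whose sequence it shares. The summed erythroid level was 101 to 3061 in hippocampus and 441 to 18091 in whole brain, and Slc4a1 was among the members at 0 in hippocampus. In bulk samples, fewer cells of a type and less RNA per cell cannot be told apart.

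Neutrophil genes had a median of -1.25 over 15 tested members, 4 with a higher estimate and 0 called. Ngp, a neutrophil granule protein, had 1.37 and 1.35 in hippocampal Dicer-deficient and 202 and 0.615 in hippocampal control libraries, so that control 15 alone was high. The whole-brain libraries had 552, 62, 934 and 177 in Dicer-deficient and 22, 119, 45.1 and 821 in control libraries, and the difference was -4.68 ± 1.20 (SE), adjusted p = 0.173. The summed level was 779 to 2613 in hippocampus and 928 to 5645 in whole brain, with Retnlg, Mmp9, Elane and Mpo at 0 in hippocampus. Monocyte genes had a summed level of 1107 to 1916 in hippocampus and 319 to 2635 in whole brain, with Ear2 and Cd226 at 0 in both. Border macrophage genes had 1108 to 2007 in hippocampus and 1012 to 2212 in whole brain, with Cd163, Lyve1, Cd209f and Cd36 at 0 in hippocampus and Lyve1 and Cd209f at 0 in whole brain. Lymphocyte genes had 10.4 to 38.4 in hippocampus and 10.9 to 123 in whole brain, with 12 of the 15 members in the tables at 0 in hippocampus and 7 at 0 in whole brain. The part of these cell types in the regional values of Egr1, Tnf and Ccl3 was not tested.

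Neuronal genes were low in both regions, with summed levels of 3.91 to 89.8 in hippocampus and 32 to 166 in whole brain. All 8 tested neuronal genes had a lower estimate, with 0 called and a median of -0.95. A higher estimate was found for 42.7% of all genes and for 28.8% of genes with a mean level under 10. The neuronal share was not matched for level. Meg3, one of those tested, was at 0 in hippocampus and could enter only through whole brain. Of 12 hippocampal neuron markers 4 were tested, 3 with a higher estimate and 0 called, and their median was 0.46, or 0.13 without hippocampal Dicer-deficient 18. Prox1, the dentate granule cell factor, had 26.1 and 0 in hippocampal Dicer-deficient and 27.3 and 1.84 in hippocampal control libraries, against 0 to 10.2 in whole brain. Libraries 18 and 15 were thus high in Prox1 and 20 and 16 were not, and the difference was 0.90 ± 0.86 (SE), adjusted p = 0.731. Summed levels of hippocampal neuron markers were 106 to 208 in hippocampus and 99.4 to 182 in whole brain, with Neurod1, Fibcd1 and Spink8 at 0 in both. Oligodendrocyte lineage genes summed to 2013 to 3357 in hippocampus and 2466 to 3715 in whole brain, and endothelial and mural genes to 31.7 to 73.4 in hippocampus and 31.6 to 104 in whole brain.

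**Figure D4:**
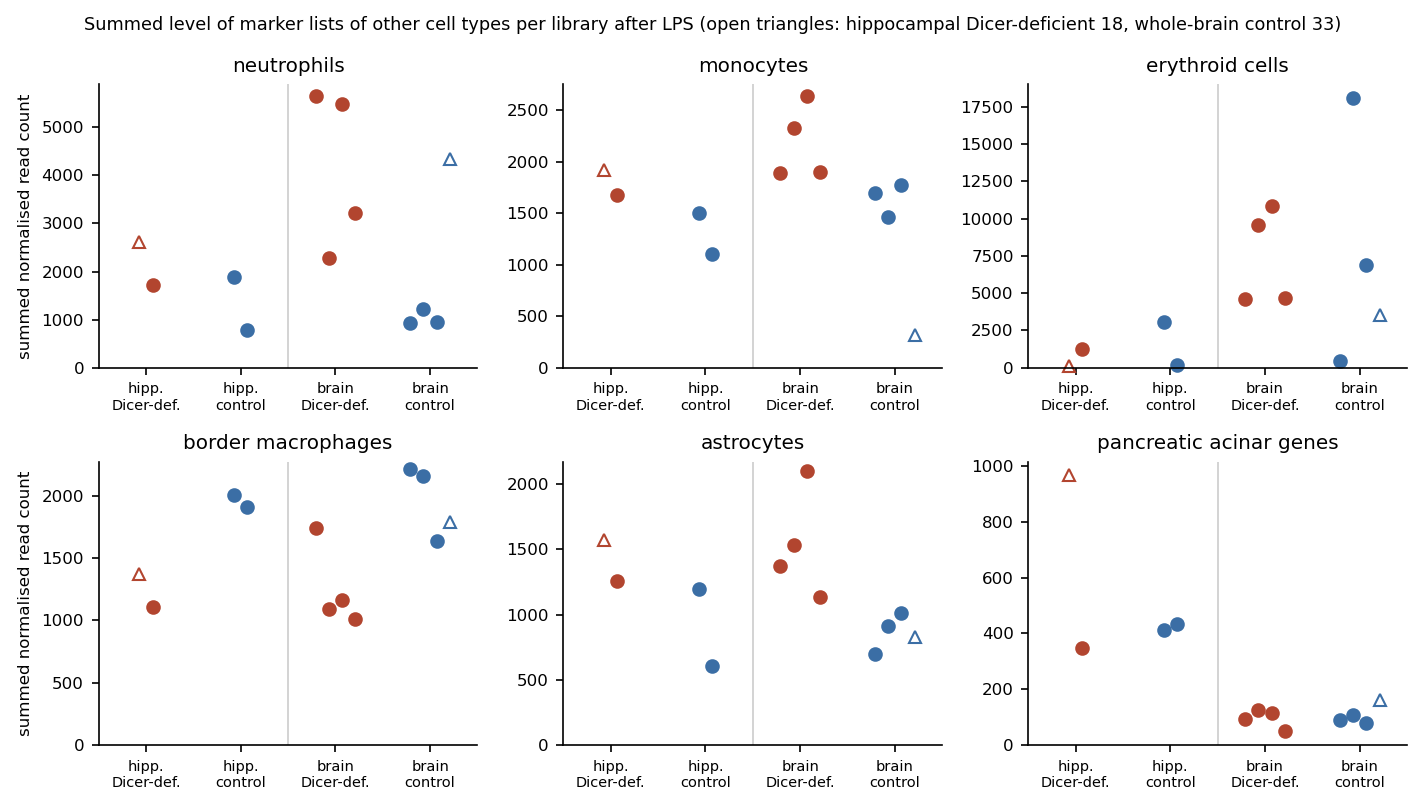
Summed normalised read count per library of marker lists of other cells and of pancreatic acinar genes after LPS, by region and genotype. Erythroid sums reach 3061 in hippocampus and 18091 in whole brain but overlap, as do border macrophage and astrocyte sums. The pancreatic acinar list, chosen after values were seen, runs from 348 to 970 in hippocampus and from 50.9 to 161 in whole brain.

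The regional difference itself was not shown to depend on Dicer. For the interaction, the regional difference in Dicer-deficient libraries minus that in controls, limma called 0 of 12363 genes, with 782 (6.33%) at an unadjusted p under 0.05. On the recovered reads edgeR with TMM scaling called 0, with 778 at that p, and DESeq2 0, with 804. With 2 libraries per hippocampal genotype this contrast was imprecise, and leaving out 1 of them changed it: 216 genes were called without hippocampal Dicer-deficient 20 and 2 without hippocampal control 15 or 16, where a lone library was taken to vary like the other groups. The smallest p belonged to low-level genes. Kctd7, a potassium channel tetramerisation domain protein, had 0 and 0 in hippocampal Dicer-deficient and 28.1 and 9.22 in hippocampal control libraries, against 3.81 to 14.6 and 2.9 to 6.66 in whole-brain Dicer-deficient and control libraries. Its interaction was -4.87 ± 0.95 (SE, adjusted p = 0.705, limma). The interaction estimates were 5.31 for Ajuba, -5.18 for Lrrc27, -4.72 for Dpep2 and 3.14 for Zfp518b, none of them called.

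Apoe and Lcn2 followed genotype in both regions. Apoe, the lipid-carrying apolipoprotein, had 96 and 187 in hippocampal Dicer-deficient and 1682 and 2101 in hippocampal control libraries, and 312, 226, 159 and 232 in whole-brain Dicer-deficient and 1636, 1066, 1274 and 1683 in whole-brain control libraries. The genotypes did not overlap in either region, and the interaction was -1.18 ± 0.43 (SE, adjusted p = 0.761, limma). Lcn2, an iron-siderophore binding protein of the acute phase, went the other way, with 1376 and 2919 in hippocampal Dicer-deficient and 494 and 299 in hippocampal control libraries, and 1419, 1666, 1904 and 2606 in whole-brain Dicer-deficient and 215, 382, 199 and 619 in whole-brain control libraries. Its genotypes did not overlap in either region, and the interaction was -0.16 ± 0.60 (SE, adjusted p = 0.963, limma). Both genes were chosen after their values were seen.

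Without LPS more genes were called between the regions, or tables. Among the 11 steady-state libraries 302 of 11562 genes were called (2.61%), 138 higher in hippocampus (1.19%) and 164 lower (1.42%). Hippocampal control 1 stood apart there, with Cx3cr1, the fractalkine receptor of microglia, at 662 against 4546, 4986 and 4619.7 in the hippocampal Dicer-deficient libraries and 6934 in the other hippocampal control. Without it 474 genes were called. The count was 107, 126, 152, 160 and 172 without whole-brain Dicer-deficient 5 or 12 or whole-brain control 7, 8 or 9, in that order. Under TMM scaling of the values 386 genes were called, 131 higher and 255 lower. Sex-linked genes were mixed, with Xist at 659.8, 676 and 617 in hippocampal Dicer-deficient and 1376 and 3.8 in hippocampal control libraries, and at 0, 563 and 3.68 and 0, 1.62 and 0 in whole-brain Dicer-deficient and control libraries. The part of sex in the steady-state calls was not tested.

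The steady-state and LPS comparisons share no library. Of the 302 genes called at steady state 298 were tested after LPS, 222 of them (74.5%) had the same sign and 288 (96.6%) had a smaller difference. Genes picked for a large difference in 1 set of libraries have smaller ones elsewhere by that choice alone, so these counts do not show that the regions were closer after LPS. Their median size was 1.08 at steady state and 0.29, counted in the steady-state direction, after LPS. Sh3bp1 was called in both. Over the 11379 genes tested in both, Pearson's r of the differences was 0.19, a description across genes that share libraries and tables and are not independent. Steady-state calls included 4 of 10 MHC class II genes, 6 of 10 border macrophage genes and 6 of 10 neutrophil genes. All of these were higher in hippocampus, where the background was 1.19%. A gene entered the steady-state comparison with a level of 1 or more in at least 5 libraries, the number of hippocampal ones. Lyve1, with 169 hippocampal and 0 whole-brain reads, could therefore enter only through the group where it was high. These shares are a description, and the part of the filter in them was not tested.

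Taking each LPS response within its own table removes any fixed offset between tables. It does not remove differences between the steady-state and LPS libraries of a table other than LPS. The whole-brain steady-state labels also say PBS, and hippocampal Dicer-deficient libraries had high Xist at steady state but not after LPS. The part of these differences in the responses was not tested. In 1 fit of 23 libraries, LPS changed 3598 of 13196 genes in hippocampus (27.3%) and 3194 in whole brain (24.2%). The response differed between regions for 20 genes (0.152%), 2 with a higher response in hippocampus (0.0152%) and 18 with a lower one (0.136%), beside 1295 (9.81%) at an unadjusted p under 0.05. The count was 74 without hippocampal Dicer-deficient LPS library 20, 99 without hippocampal steady-state control 1, and 33 and 40 without hippocampal steady-state Dicer-deficient 4 and 6. This contrast shares its libraries with the regional comparisons above, so its values stand beside theirs and are not further evidence for them.

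Egr2 was one of the 2 with a higher response. It had no read in the 5 steady-state hippocampal libraries and 124 reads in the 4 after LPS, so its level after LPS was at least 54.1-fold higher with a floor of 3 reads over the group. Its whole-brain levels were 0.903, 2.54, 11.9 and 8.21 in Dicer-deficient and 9, 4.15, 11.3 and 0.967 in control libraries after LPS, and 4.69, 0.679 and 0 in Dicer-deficient and 4.49, 7.24 and 17.5 in control libraries at steady state. The difference of responses was 4.26 ± 0.86 (SE, adjusted p = 0.0369, limma), and it was called in 13 of 23 refits without a library, with adjusted p up to 0.103 in the others (that value without whole-brain steady-state control 9). Egr1 had a response of 2.34 in hippocampus (adjusted p = 3.1e-06, limma) and 0.88 in whole brain (adjusted p = 0.00532, limma), and the difference of 1.46 ± 0.36 was not called (adjusted p = 0.151, limma). At steady state its levels in the regions overlapped, at 384, 433 and 430.1 in hippocampal Dicer-deficient and 1192 and 362 in hippocampal control libraries and 235, 244 and 358 in whole-brain Dicer-deficient and 588, 1121 and 1538 in whole-brain control libraries. The second gene, Ppih, a cyclophilin of the spliceosome, had 48 and 25 in Dicer-deficient and 21.9 and 22.1 in control hippocampal libraries after LPS, and 0, 0 and 0 and 8.58 and 3.04 at steady state. Its difference of responses was 3.96 ± 0.62 (SE, adjusted p = 0.00177, limma), in all 23 refits.

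The inflammatory genes with separated levels responded in both regions. Tnf responded by 4.18 in hippocampus and 3.89 in whole brain, a difference of 0.29 ± 0.58 (SE, adjusted p = 0.906, limma). Ccl3 responded by 2.38 in hippocampus and 1.97 in whole brain, with a difference of 0.41 ± 0.43. Il12b responded by 3.94 in hippocampus and 3.97 in whole brain, a difference of -0.03 ± 0.94. All 6 of these responses were called, and none of the 3 differences was. At steady state Tnf already had a regional estimate of 1.04 (adjusted p = 0.191, limma) and Il12b one of 1.68 (adjusted p = 0.216, limma).

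Apoe had the smallest adjusted p among the genes whose response was lower in hippocampus. After LPS its levels in the regions overlapped, as given above. At steady state it had 7266, 9091 and 9931 in hippocampal Dicer-deficient and 6832 and 6919.9 in hippocampal control libraries, against 676, 520.2 and 620.5 in whole-brain Dicer-deficient and 3069.8, 2133 and 1755 in whole-brain control libraries. The hippocampal response was -3.93 and the whole-brain response -1.05, a difference of -2.88 ± 0.28 (SE, adjusted p = 3.3e-06, limma), called in all 23 refits without a library. In Dicer-deficient libraries alone it was -4.60 (adjusted p = 5.4e-05, limma), and in control libraries alone, where 0 genes were called, -1.17 (adjusted p = 0.559, limma). The difference of responses thus came with a steady-state gap of 2.85 (adjusted p = 0.000252, limma) and a gap after LPS of -0.16 (adjusted p = 0.857, limma).

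Most of the other genes with a lower response were markers of other cells or class II genes. S100a8, a neutrophil calprotectin subunit, had 17.8 and 5.4 in Dicer-deficient and 208 and 1.84 in control hippocampal libraries after LPS, and 2014, 1526 and 1521 and 99.6 and 483 at steady state. In whole brain it had 257, 40.4, 326 and 61.4 in Dicer-deficient and 37, 82.7, 28.9 and 657 in control libraries after LPS, and 0 to 13.7 at steady state. S100a8 thus fell in hippocampal Dicer-deficient libraries and rose in whole brain, while in hippocampal controls the states overlapped. The difference of responses was -10.27 ± 1.28 (SE, adjusted p = 0.000183, limma). In Dicer-deficient libraries alone it was -12.04 (adjusted p = 0.000193, limma), and in control libraries alone -8.51 (adjusted p = 0.406, limma). S100a9, Ngp, Camp, Ltf, Cd177 and Pglyrp1, all of neutrophil granules or surface, and the monocyte genes Ly6c2 and Chil3 were called in the same direction. Of these, Camp was called in 7 of 23 refits without a library, Pglyrp1 in 16 and Cd177 in 22, and the other 5, like S100a8, in all 23. The summed neutrophil level was 779 to 2613 in hippocampus after LPS and 1518 to 8626 at steady state, and 928 to 5645 in whole brain after LPS and 968 to 1352 at steady state.

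Lyve1 and F13a1, genes of border macrophages, were also among them, as was the ficolin gene Fcna, which was called in 19 of 23 refits where the other 2 were called in all. A gene entered this fit with a level of 1 or more in at least 4 libraries. Outside the hippocampal steady-state libraries Lyve1 had 0 reads. Fcna had 7 there in whole-brain steady-state Dicer-deficient 11b and 3 in hippocampal Dicer-deficient 20 after LPS. Both thus entered only through the group where they were high, and the part of the filter in their calls was not tested. On recovered reads Lyve1 and Fcna were not called, with adjusted p of 0.9999 for both in edgeR and of 0.755 and 0.797 in DESeq2, while F13a1 was called by both tools. Of the 20 genes edgeR with TMM scaling called 15, not Egr2, Cd177, Pglyrp1, Lyve1 or Fcna, and DESeq2 18. Lyve1 had 0 reads in hippocampus after LPS and 169 at steady state, at least 43.1-fold lower after LPS with a floor of 3 reads over the group, and it was at 0 in all whole-brain libraries of either state. H2-Aa, a class II alpha chain, had 17.8 and 149 in Dicer-deficient and 98.4 and 60.2 in control hippocampal libraries after LPS, and 1052, 1092 and 1482 and 393 and 1212 at steady state. In whole brain its levels were 59.9 to 305 after LPS and 48.1 to 264 at steady state, and the difference of responses was -4.03 ± 0.68 (SE, adjusted p = 0.00422, limma). H2-Ab1, H2-Eb1 and the invariant chain Cd74 were called with it, Cd74 in 8 of 23 refits and the 3 H2 genes in all 23, and so was Lcn2, in all 23. Border macrophage markers summed to 2215 to 2828 in hippocampus at steady state and 1695 to 2586 in whole brain, and the part of these cells in the class II and Apoe values was not tested.

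**Figure D5:**
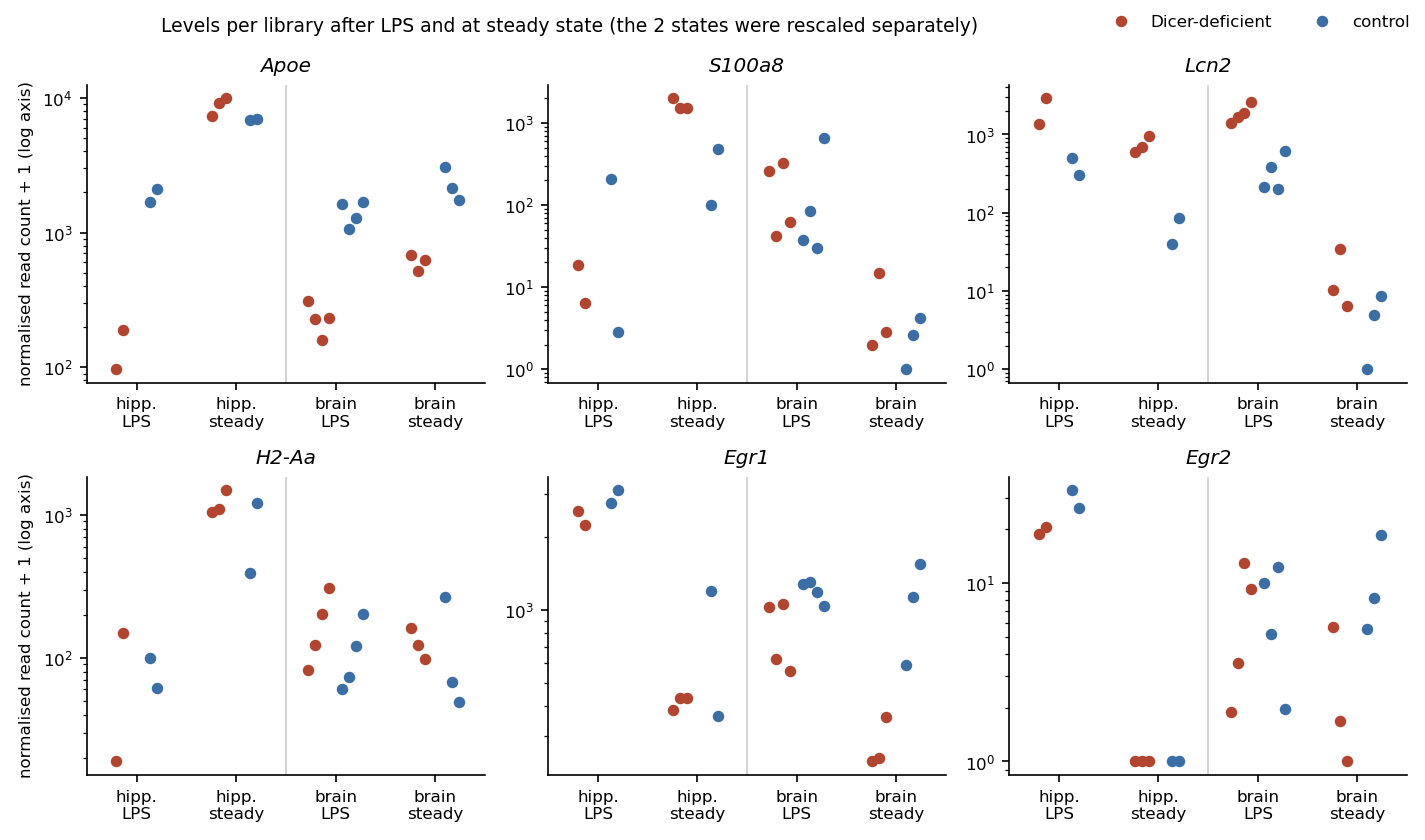
Normalised read count + 1 (log axis) per library of Apoe, S100a8, Lcn2, H2-Aa, Egr1 and Egr2 in hippocampus after LPS (n = 4), hippocampus at steady state (n = 5), whole brain after LPS (n = 8) and whole brain at steady state (n = 6), by genotype. The libraries of each state were rescaled on their own. Apoe, S100a8, Lcn2 and H2-Aa lie higher in hippocampus than in whole brain at steady state and overlap after LPS, whereas Egr1 and Egr2 lie higher in hippocampus after LPS.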

How the data were processed

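RNA was measured in 12 hippocampal and whole-brain libraries after LPS and in 11 at steady state, of 46 in the series. HISAT 0.1.5, HOMER, DESeq2, SAMtools and bcl2fastq, with build mm9, appear without a role in the submitters' processing notes, and the labels' protocols name oligo-dT beads. The deposited signal is the read count of each gene times a constant of its library, set by the authors in each table on its own. Dividing by that constant recovered the reads: in every library at least 99.9% of values above 0 came out whole, to within 0.1 read. How the authors annotated genes and treated amplified copies is not given in the sources used here. Floors cover counting error only, and intervals cover counting error and the spread between libraries.

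The 2 tables were joined on gene symbol (24421 genes, 9586 of them above 0 in all 12 libraries) and the columns rescaled together by the median of ratios, with factors of 0.985 to 1.04. limma 3.58.1 in R 4.3.3 with a variance trend was fitted to log2(value + 1), for genes at 1 or more in at least 4 libraries (5 at steady state). The design had planned edgeR only if tables held raw counts. Alternatives were pseudocounts of 0.1 and 5, no filter, deposited values, TMM scaling, edgeR 4.0.16 and DESeq2 1.42.0 on the reads, other sets of libraries, and each library left out in turn. The procedure was tested on simulated data.

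The comparison, the 28 gene lists and the alternatives were chosen with earlier results of these data known. Named genes are Dicer1, called genes without overlap at or above the median level (up to 12 in each direction), for each list the 3 tested members with the smallest p, the 5 smallest p of the genotype interaction, and the 5 largest called differences in each direction of the LPS response by region. Any other gene was picked with its values known. These include the genes of the LPS response beyond those 5, Tmem119, Sall1, Cx3cr1, Csf1r, P2ry12, Ddx3y and Hbb-b2 among them. Promoter windows were taken from RefSeq, build GRCm38.p6, and no coordinates of mm9 were used.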

Additional observations from a re-analysis of the deposited data

Results flagged for a closer look

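Single libraries stood outside their group by Dixon's test in 24 of 176 tests of named genes in the 4 whole-brain Dicer-deficient and the 4 whole-brain control libraries after LPS. Chance gives such a result in about 1 of 20 groups, and the hippocampal groups, with 2 libraries each, were not tested. The library labelled whole-brain control 33 accounted for 13 of the 24. Its inflammatory genes were low, with Saa3 at 79.5 against 2575 to 2821 and Ier3 at 198 against 1725 to 1981 in the other 3 controls. Its microglial genes were high, with P2ry12 at 5872 against 941 to 1428, P2ry13 at 2792 against 1045 to 1265, Sall1 at 819.5 against 215 to 263 and Nrp1 at 183 against 22.5 to 34. Neutrophil genes were high there too, with S100a9 at 1483 against 40 to 283, S100a8 at 657 against 28.9 to 82.7, Ngp at 821 against 22 to 119 and Camp at 524 against 9 to 43.5. The remaining ones were Ltf at 176 against 6 to 19.2, Chil3 of the monocyte list at 142 against 6 to 12.7 and Il7r of the lymphocyte list at 111 against 7.76 to 18. Lck, the other tested lymphocyte gene, had 2 reads there and 0, 1 and 3 in the other 3 controls. Il7r had 80 to 333 reads in the whole-brain libraries at steady state, so it does not mark lymphocytes here. The part of the flagged genes in the regional differences was measured only by leaving the library out.

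Whole-brain control 17 stood apart in 3 genes, the Hsp70 genes Hspa1a at 4166 against 85.2 to 121 and Hspa1b at 3269 against 78.5 to 102, and the microglial adaptor Tyrobp at 4591 against 6493 to 6797. In whole-brain Dicer-deficient 38 it was Xist at 364 against 4.61 to 10.2, H2-Eb1 at 95.8 against 36.2 to 38.7, Il1b at 1809 against 1090.2 to 1193 and Ier2 at 888 against 1302 to 1346; the ranges are those of the other 3 libraries of that genotype. In whole-brain Dicer-deficient 35 it was Per1 at 752 against 478 to 512, Ccl6 at 44.5 against 70.1 to 74, C3ar1 at 926 against 1689 to 1799 and C1qc at 16618 against 20451 to 21044.

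The LPS response differed between hippocampus and whole brain for 20 genes by the interaction test of 23 libraries (limma). On the log2 scale the hippocampal response minus the whole-brain response was 4.26 for Egr2 and 3.96 for Ppih. It was negative for Apoe (-2.88), Lcn2 (-4.72) and the class II genes H2-Aa (-4.03), H2-Ab1 (-3.09), H2-Eb1 (-3.52) and Cd74 (-1.85). Among neutrophil genes it was -12.12 for S100a9, -11.52 for Ngp, -10.27 for S100a8, -9.28 for Camp, -8.98 for Ltf, -5.48 for Cd177 and -4.91 for Pglyrp1. Among monocyte and border macrophage genes it was -8.11 for Chil3, -6.91 for Ly6c2, -6.76 for F13a1, -4.44 for Lyve1 and -3.58 for Fcna. Hippocampal summed neutrophil levels were 779 to 2613 after LPS and 1518 to 8626 at steady state, and their part in these differences was not tested.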

How the results depend on the processing

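No paired analysis was possible because the hippocampal and whole-brain groups share no replicate number after LPS, and at steady state they share only the number 5, in the Dicer-deficient groups. The 4 genes called for region after LPS became 11 with a pseudocount of 0.1, 1 with a pseudocount of 5, 17 in the fit of all 23 libraries, and 0 without the genotype covariate, in control libraries alone or in Dicer-deficient libraries alone. On recovered reads the count was 9 (edgeR, TMM), 8 (edgeR, RLE) and 83 (DESeq2), and without whole-brain control 33, added after seeing the data, 14 (edgeR, TMM) and 118 (DESeq2). No filter, the values as deposited and TMM scaling of the values each gave 4. Leaving out each library gave 0 to 12. For region by genotype it gave 0 to 216 against 0, and every other alternative of that comparison gave 0. For region at steady state, 302 genes became 189 (edgeR, TMM), 187 (edgeR, RLE), 696 (DESeq2), 134 without the genotype covariate, 24 in control and 13 in Dicer-deficient libraries alone, and 107 to 474 with a library left out. For the LPS response by region, 20 genes became 104 (DESeq2) and 0 in control libraries alone, and 16 to 99 with a library left out. The cause of these shifts was not tested, apart from the fewer libraries of the single-genotype fits.

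No called value changed sign under any alternative that was run. Of the named-gene values under alternatives 4317 kept their side of the threshold and their sign, 194 lost the call, 84 gained it and 80 uncalled ones changed sign or moved. Of the list medians 766 moved by less than the spread between libraries and 17 by more. The median of all genes was -0.06 with the values as deposited and -0.07 under TMM scaling. With 2 libraries per hippocampal genotype and 1817611 reads in the shallowest library, genes of few reads are known only within wide intervals, which cover counting error and library spread and not the table.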

Other observations

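Transcripts of pancreatic acinar cells, which microglia are not known to express, were present in all 12 libraries after LPS. The list of 30 such genes was drawn up after their values were seen, so its direction is a description. Of these, 20 were tested, 20 had a higher estimate in hippocampus, 0 were called by limma, and the median difference was 1.97, or 2.09 without whole-brain control 33. Ctrb1, chymotrypsinogen B, had 265 and 93.8 in hippocampal Dicer-deficient and 117 and 94.7 in hippocampal control libraries, and 32.5, 29.3, 28.1 and 11.5 in whole-brain Dicer-deficient and 12, 22.5, 13.4 and 60.3 in whole-brain control libraries. Its difference was 2.45 ± 0.42 (SE), adjusted p = 0.062 in limma, and 2.69 with an adjusted p of 0.00553 without whole-brain control 33. On recovered reads edgeR with TMM scaling called Ctrb1 (adjusted p = 0.0445), Cela1 (0.0492) and Cela2a (0.0463), and DESeq2 called these 3 and Clps (0.0054) and Sycn (0.0255). Cela2a, an elastase, ranged from 32.8 to 107 in hippocampus and from 3.3 to 30 in whole brain, without overlap. Dmbt1 had 25 reads over the 4 hippocampal libraries and 0 over the 8 whole-brain libraries, at least 16.9-fold higher in hippocampus with a floor of 3 reads over the whole-brain group. The summed level of the list was 348 to 970 in hippocampus and 50.9 to 161 in whole brain after LPS, and 52.8 to 374 in hippocampus and 60.8 to 118 in whole brain at steady state. The table, the dissection and the region cannot be told apart as the source.

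Xist and the Y-linked gene Ddx3y were both well above 0 in the 3 hippocampal Dicer-deficient libraries at steady state, with Xist at 659.8, 676 and 617 and Ddx3y at 177, 204 and 191. No other of the 23 libraries showed both at such levels. Steady-state hippocampal control 1 had Xist at 1376 and Ddx3y at 2.64, and whole-brain steady-state Dicer-deficient 11b had Xist at 563 and Ddx3y at 6.11. The labels give no sex and do not say whether cells of several animals were pooled.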
